A study of Rattus norvegicus with 6 samples.

Results

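The ADP-ribosylation factor (ARF) GTPases, the exchange factor Gbf1 and the CREB3 group of membrane-bound transcription factors were examined in rat rheumatoid arthritis fibroblast-like synoviocytes (RA-FLS) treated with tumor necrosis factor alpha (TNF-α) alone or with TNF-α and emodin (EMO). The 10 genes were Arf1 to Arf6, Gbf1, Creb3, Creb3l1 and Creb3l2. They were selected on the measured rise of Arf4 in this same comparison and on its high abundance with EMO. Their differences between the groups, and the abundance of Arf4, are therefore a description, and no p-value is given for them. Of the 10 names, 9 were in the table of 34156 genes, and those 9 all passed the filter of at least 10 counts in at least 3 libraries that left 13614 genes. Arf3 was not analysed here.

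The study asked how EMO, an anthraquinone from rhubarb, changes the transcriptome of synovial fibroblasts stimulated by TNF-α. Both groups were wild-type RA-FLS cultured with 10 ng/mL TNF-α, with 3 libraries each, and the TNF-α+EMO group also received 80 μmol/L EMO. The labels give day 5 for all libraries, whereas the methods of the study describe a shorter incubation, and the cells were obtained as a ready-made culture. There was no group without TNF-α and none with EMO alone. The methods of the study call the 3 replicates of a group biological but do not say whether they were separate cultures, so p-values measure the spread between these libraries.

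The libraries held 16813322 to 16982023 counts in the TNF-α group and 17185322 to 17794455 in the TNF-α+EMO group. TNF-α+EMO replicate 3 stood somewhat apart from the other libraries of its group, with a chi-square per gene of 24.4 against replicate 1 and 15.6 against replicate 2, where replicates 1 and 2 gave 6.49. Of the fibroblast markers, Vim, Col1a1 and Pdgfra were abundant in the TNF-α group, and Cdh11 and Pdgfrb had means of 2968 and 3035 normalized counts there. Thy1, Prg4 and Pdpn had at most 7 counts in any library, and Fap at most 42. The mean of Cdh11 with EMO was 40.3 normalized counts. With EMO, 7 of the 8 fibroblast markers tested were called lower by the rule given below, where 27.8% of all tested genes were. Vim was also lower, but by less than 2-fold, at 61464 ± 1350 and 32387 ± 1299 normalized counts (SD, n = 3 each). The summed level of the list went from 210600 to 231110 normalized counts per TNF-α library to 35263 to 38023. The summed macrophage markers went from 1200 to 1302 down to 747 to 818 and the endothelial markers from 69.2 to 76.5 down to 13.2 to 21.7. The macrophage sum was mostly Cd14, which had mean normalized counts of 1093 and 510, while Cd68 went the other way, from 153 to 256, and Itgam from 0.327 to 12.3. The epithelial markers, almost all of it Krt8, went from 9950 to 10806 down to 1984 to 2333, while Cldn4 had 0, 0 and 0 counts with TNF-α alone and 16, 17 and 28 with EMO. The leukocyte marker Ptprc, the macrophage markers Adgre1 and Cd163, the endothelial receptor Kdr and the epithelial markers Epcam and Krt18 had at most 3 counts in every library. The part of these shifts in the results that follow was not tested, and in bulk RNA fewer cells of a type and less RNA per cell cannot be told apart.

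ARF GTPases are small switches that, when loaded with GTP, attach to membranes and recruit coats, adaptors and lipid-modifying enzymes. Class I (Arf1, Arf2 and Arf3) and class II (Arf4 and Arf5) act mainly at the Golgi and the compartment before it, whereas the class III member Arf6 works at the plasma membrane and endosomes. Gbf1 loads GTP on ARFs at the cis-Golgi and is a target of the Golgi poison brefeldin A. CREB3, CREB3L1 and CREB3L2 are made as membrane proteins, travel to the Golgi under stress, and are cut there by the site-1 and site-2 proteases so that their front part enters the nucleus. CREB3 is known as a regulator of Arf4 in cells whose Golgi has been disrupted with brefeldin A.

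Promoter windows from RefSeq (build GRCr8, 250 bases before to 50 bases after the transcript start) were found for all 10 genes. They were searched on both strands for short motifs of stress-responsive transcription. The stretches that held TGACGTGG, the core of the unfolded protein response element bound by XBP1 and ATF6, or ACGTGGC, the core of the Golgi apparatus stress response element bound by TFE3, are shown here for Arf4 and for Arf1, Gbf1, Creb3 and Arf5. Arf2, which was also higher with EMO in normalized counts, holds neither motif, nor do Arf6, Creb3l1 and Creb3l2. Capitals mark the matches, and the start is counted as position 0.
Arf4 (chr16:1903412-1903451, plus strand): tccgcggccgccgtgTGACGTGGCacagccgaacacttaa
Arf1 (chr10:44514000-44514039, minus strand): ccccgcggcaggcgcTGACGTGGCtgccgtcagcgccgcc
Gbf1 (chr1:254960002-254960041, plus strand): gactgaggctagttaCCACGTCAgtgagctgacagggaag
Arf5 (chr4:58003900-58003939, plus strand): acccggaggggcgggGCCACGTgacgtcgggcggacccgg
Creb3 (chr5:62613531-62613570, plus strand): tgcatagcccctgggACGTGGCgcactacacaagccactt
The 250 bases that lead up to the Arf4 start (chr16:1903186-1903435, plus strand) show where the match lies in the promoter, at the very end next to the start.
Arf4 upstream: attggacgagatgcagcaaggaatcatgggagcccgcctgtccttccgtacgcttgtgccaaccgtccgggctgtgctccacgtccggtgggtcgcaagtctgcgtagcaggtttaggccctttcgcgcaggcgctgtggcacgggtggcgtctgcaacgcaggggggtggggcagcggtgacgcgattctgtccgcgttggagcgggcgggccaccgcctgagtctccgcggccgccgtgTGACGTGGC

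TGACGTGG was present in 3 of the 10 windows, at positions -9 to -2 of Arf4, -30 to -23 of Arf1 and, on the opposite strand, -48 to -41 of Gbf1. Across all 33469 promoter windows it occurred in 199, or 0.595%, and among the 8615 tested genes matched to a window it occurred in 0.905%. ACGTGGC was present in 5 windows, those of Arf1, Arf3, Arf4, Arf5 and Creb3, and in 770 of all windows, or 2.30%, and in 3.76% of those of tested genes. In Arf1 and Arf4 both motifs overlap in a single run of 9 bases, so these are not independent matches. The full cAMP response element TGACGTCA, the classical site of CREB factors, was in 0 of the 10 windows, in 1.83% of all windows and in 3.16% of those of tested genes. Shorter motifs were common everywhere: TGACG was in 5 of the 10 windows, where 21.2% of all windows and 32.7% of those of tested genes held it. CCACG was in 7, against 31.6% and 47.6%, CCAAT in 4, against 37.5% and 38.4%, TGATG in 3, against 40.1% and 25.9%, and GGGCGG in 8, against 33.1% and 64.0%. The ETS core CCGGAAG was in 1 window, that of Arf3, against 8.75% and 18.7%. Windows of tested genes thus held most of these motifs more often than all windows, and the share among tested genes covers only the genes with a window, 8615 of 13614. The genes were chosen with their expression known, so these shares describe the letters in the windows, and no binding was measured.

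**Figure D1:**
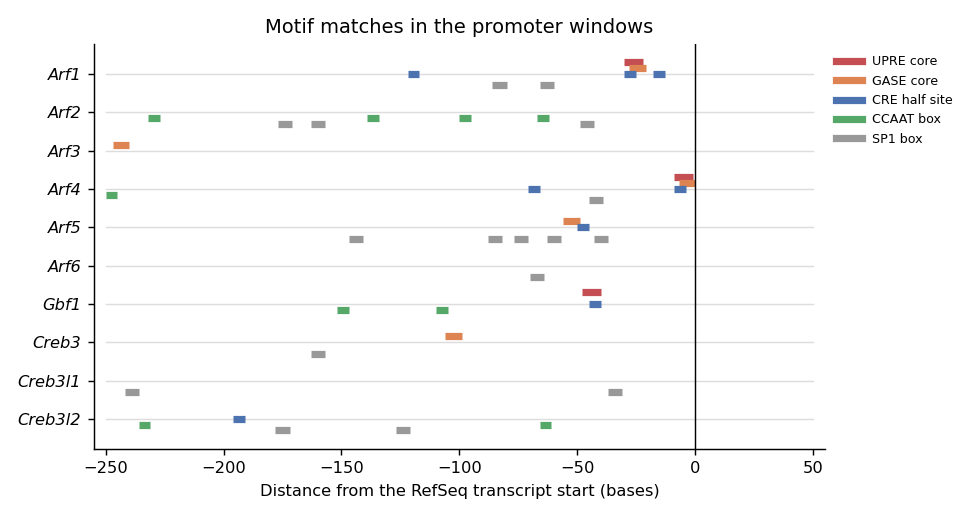
Positions of 5 of the searched motifs in the promoter windows of the 10 genes, with distance in bases from the RefSeq transcript start on the horizontal axis and one line per gene. TGACGTGG (UPRE core) lies within 50 bases before the start of Arf1, Arf4 and Gbf1, and TGACG (blue), CCAAT and GGGCGG (SP1 box) are spread over the windows.

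Arf4 was the dominant difference among the ARF GTPases. Arf4 is a class II ARF that acts in the early secretory pathway, and its gene (ENSRNOG00000012623) lies at 2338333 to 2354909 on chromosome 16 in the Rnor_6.0 coordinates of the deposited table. Normalized counts, which are counts scaled for library size and composition, were 10072, 10079 and 10752 in TNF-α replicates 1 to 3 and 119168, 119109 and 116927 in TNF-α+EMO replicates 1 to 3. The replicates of each group lay close together and the groups were far apart. The means were 10301 ± 391 (SD, n = 3) and 118401 ± 1277 (SD, n = 3), an 11.5-fold higher level with EMO, and the log2 fold change was 3.52 with a standard error (SE) of 0.05. Without TNF-α+EMO replicate 3 the log2 fold change of Arf4 was 3.55.

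This placed Arf4 among the most abundant transcripts of the treated cells, which was part of the reason for selecting these genes and is not an independent result. By counts it ranked 192nd, 191st and 177th with TNF-α alone and 3rd in all 3 libraries with EMO. It took 0.0605%, 0.0609% and 0.0656% of all counts with TNF-α alone, against 0.672%, 0.669% and 0.645% with EMO. Counts favor long transcripts, so levels were also expressed per length as TPM, recomputed from the counts and the deposited gene lengths. On that scale Arf4 was at 712, 727 and 769 TPM with TNF-α and 6866, 6728 and 6206 TPM with EMO, and its rank went from 180, 177 and 170 to 7, 8 and 7.

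The change of Arf4 combined a large fold with a high starting level. Of the 13614 genes tested, 264 had a larger log2 fold change, but only 1 of those was among the 3978 genes with a mean of at least 1000 normalized counts in the TNF-α group. In normalized counts, which are not scaled for length, Arf4 gained 108101, and no other tested gene gained more. Gains per length were not ranked. The next in order were the ER chaperone Hspa5 with a gain of 105084, the elongation factor Eef1a1 with 100628 and Tpt1 with 92331.

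Arf1, the class I ARF that recruits the COPI coat at the Golgi, was the next in size among the GTPases. It lies on chromosome 10 at 45563547 to 45579029. Its normalized counts were 5767, 5838 and 5929 with TNF-α and 13081, 13040 and 14512 with EMO. All TNF-α+EMO libraries were above all TNF-α libraries, with means of 5845 ± 81.3 and 13544 ± 839 (SD, n = 3 each). The level was 2.32-fold higher, with a log2 fold change of 1.21 (SE 0.06).

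Arf5, the other class II ARF, lies on chromosome 4 at 55715744 to 55718670 and differed far less than Arf4. Its normalized counts were 6261, 5258 and 5417 with TNF-α and 7381, 7438 and 8583 with EMO, with means of 5645 ± 539 and 7801 ± 678 (SD, n = 3 each). The groups did not overlap, and the log2 fold change was 0.47 (SE 0.08), a 1.38-fold higher level. The class II pair thus moved by unequal amounts.

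Arf2, a class I ARF very close in sequence to Arf1 and Arf3, lies on chromosome 10 at 92018562 to 92040333 and was the least abundant ARF. It had 909, 946 and 942 normalized counts with TNF-α and 1058, 1070 and 980 with EMO, a log2 fold change of 0.15 (SE 0.07). The treated libraries were higher by a small margin on this scale and lower on the TPM scale. How reads shared between such similar ARF genes were assigned is not given in the sources used here, so the values of the close paralogs are uncertain to that extent.

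Arf6, the class III ARF of the cell surface and endosomes, lies on chromosome 6 at 91697109 to 91698255. Its normalized counts were 3413, 2983 and 2952 with TNF-α and 2634, 2501 and 3016 with EMO. The groups overlapped because TNF-α+EMO replicate 3 was above replicates 2 and 3 of the TNF-α group. The log2 fold change was -0.20 (SE 0.08) with all libraries and -0.26 without TNF-α+EMO replicate 3.

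Gbf1, the exchange factor that activates ARFs at the cis-Golgi, lies on chromosome 1 at 265904566 to 266033156. It had 4233, 4357 and 4222 normalized counts with TNF-α and 9624, 9085 and 8456 with EMO. Every TNF-α+EMO library was above every TNF-α library, and the means were 4271 ± 74.8 and 9055 ± 585 (SD, n = 3 each). This was a 2.12-fold higher level, with a log2 fold change of 1.08 (SE 0.06).

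The CREB3 factors were split in direction. Creb3 was higher with EMO, and its relatives Creb3l1 and Creb3l2, which are known for regulating secretory and matrix genes in bone and cartilage cells, were lower. Creb3 (chromosome 5, 59063531 to 59068188) had 1851, 1850 and 1845 normalized counts with TNF-α and 4293, 4615 and 4958 with EMO. The TNF-α libraries were nearly identical, the TNF-α+EMO libraries were all higher, and the means of 1849 ± 3.11 and 4622 ± 332 (SD, n = 3 each) were 2.50-fold apart, with a log2 fold change of 1.32 (SE 0.07). Creb3 shares 62 bases with Tln1 and 108 bases with Gba2, both on the opposite strand. Mean raw counts, not scaled for library size, were 12284 with TNF-α and 8662 with EMO for Tln1 and 622 and 613 for Gba2. The part of reads from these neighbors in the difference of Creb3 was not tested. The strand setting of the counting is not given in the sources used here, and reads in the shared bases cannot be assigned to a strand.

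Creb3l2, on chromosome 4 at 64869026 to 64981384, had 4429, 4319 and 3801 normalized counts with TNF-α and 967, 837 and 862 with EMO. No libraries of the groups came near each other, the means were 4183 ± 335 and 889 ± 69.3 (SD, n = 3 each), and the level was 4.71-fold lower with EMO, with a log2 fold change of -2.23 (SE 0.08). Creb3l1, on chromosome 3 at 80892435 to 80933283, had 697, 612 and 726 normalized counts with TNF-α and 311, 338 and 266 with EMO. Its groups were also separate, with means of 679 ± 59.0 and 305 ± 36.3 (SD, n = 3 each), a 2.22-fold lower level and a log2 fold change of -1.15 (SE 0.11).

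**Figure D2:**
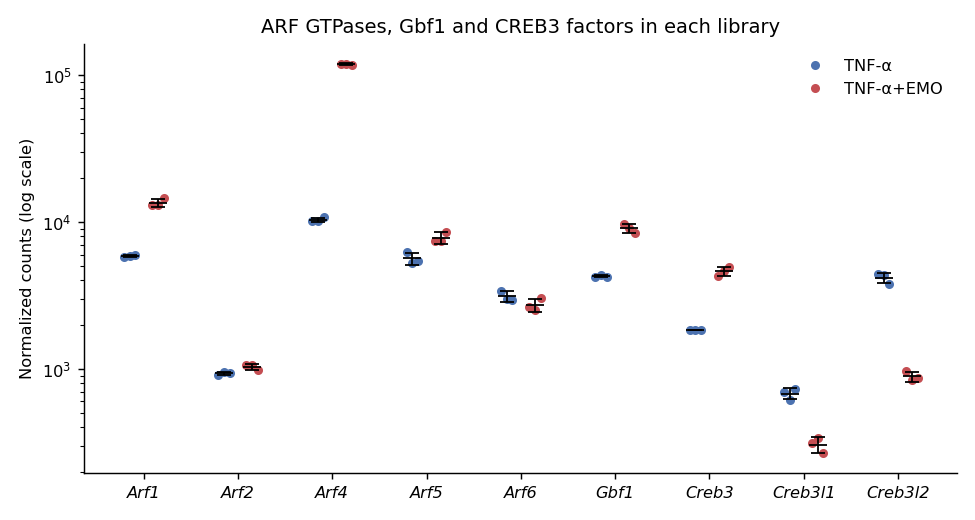
Normalized counts on a log axis for the 9 genes in the 3 TNF-α libraries (blue) and the 3 TNF-α+EMO libraries (red), with points for libraries and bars for the mean ± SD. Arf4 goes from about 10301 to 118401, Creb3l2 and Creb3l1 are lower with EMO, and the libraries of the groups overlap for Arf6 alone.

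A gene was called when its adjusted p was below 0.05 and its absolute log2 fold change was above 1, that is, more than 2-fold. Among the 9 genes, 6 passed both criteria, where 47.3% of all tested genes did. Arf1, Arf4, Gbf1 and Creb3 were the 4 called higher, where 19.5% of all tested genes were, and Creb3l1 and Creb3l2 were the 2 called lower, where 27.8% were. Normalized counts of the groups did not overlap for 8 of the 9, where 82.9% of all tested genes did not. Nothing is read from these shares, since the genes were chosen on this comparison. The genes just inside the fold threshold were Gbf1 at 1.08 and Creb3l1 at -1.15, and the nearest outside was Arf5 at 0.47. The 9 genes had a median log2 fold change of 0.47 and all genes tested one of -0.01, of which 6764 were above 0 and 6850 below.

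**Figure D3:**
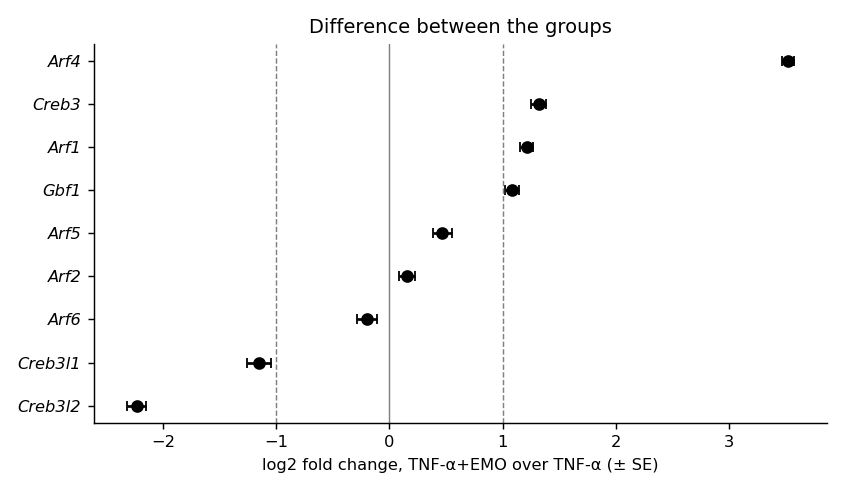
Log2 fold change of TNF-α+EMO over TNF-α with its standard error for the 9 genes, from the fit across all tested genes, with dashed lines at the fold threshold of 1 in either direction. Arf4 stands at 3.52, Creb3, Arf1 and Gbf1 lie between 1.08 and 1.32, and Creb3l2 lies at -2.23.

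The size of these differences depended on the scale. The log2 ratio of TPM minus that of normalized counts was between -0.362 and -0.354 for each of the 9 genes. On the TPM scale the log2 ratio was 3.16 for Arf4, 0.96 for Creb3, 0.85 for Arf1 and 0.73 for Gbf1, so that the last 3 were under 2-fold. Arf2 changed direction there, from 49.1 TPM with TNF-α to 42.6 TPM with EMO, and the groups of Arf5 overlapped. For Arf6 the direction held and the groups no longer overlapped, with 311 TPM against 211 TPM. The lower level of Creb3l1 and Creb3l2 was larger on the TPM scale, at -1.51 and -2.59. Deposited FPKM, which also adjust for gene length, kept the direction of the normalized counts for each of the 9 genes. Mean FPKM with TNF-α and with EMO were 24.9 and 27.4 for Arf2 and 310 and 426 for Arf5. They were 379 and 871 for Arf1, 68.1 and 169 for Creb3, and 37.7 and 79.3 for Gbf1. Shares of one gene in a pool, and ratios of one gene to another in the same library, are not touched by the shift between TPM and normalized counts.

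The composition of the ARF transcripts was recast. Of the summed TPM of Arf1, Arf2, Arf4, Arf5 and Arf6, Arf4 made up 28.5%, 30.2% and 31.3% with TNF-α alone, against 75.3%, 75.4% and 72.7% with EMO. The mean share was thus 30.0% ± 1.39 and 74.5% ± 1.53 (SD, n = 3 each). The other genes lost share: Arf1 went from 30.4% ± 1.10 to 15.2% ± 0.79, Arf5 from 24.9% ± 1.72 to 7.44% ± 0.57, Arf6 from 12.7% ± 0.77 to 2.39% ± 0.21 and Arf2 from 2.00% ± 0.10 to 0.48% ± 0.03. By class, class II ARFs went from 54.9% to 81.9% of the pool, class I went from 32.4% to 15.7%, and class III from 12.7% to 2.39%. Arf3 is not part of these sums.

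The pool as a whole was larger with EMO, and the other ARFs did not share a direction. The summed level was 2454 ± 45.6 TPM with TNF-α and 8858 ± 295 TPM with EMO (SD, n = 3 each). Without Arf4 the sum was 1718 ± 58.3 and 2258 ± 67.4 TPM. Of these other ARFs, Arf1 was higher, at 746 and 1347 TPM. Arf6, at 311 and 211, and Arf2, at 49.1 and 42.6, were lower, and the groups of Arf5 overlapped, at 611 and 658. The lower level of Arf2 and the overlap of Arf5 held for TPM only. In normalized counts Arf2 was higher with EMO and the groups of Arf5 were separate. Arf4 and Arf1 were at about the same level with TNF-α, with a ratio of 0.986 ± 0.026, and Arf4 was 4.91 ± 0.34 times the level of Arf1 with EMO. Against its class II partner Arf5 the ratio went from 1.21 ± 0.13 to 10.1 ± 0.94.

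**Figure D4:**
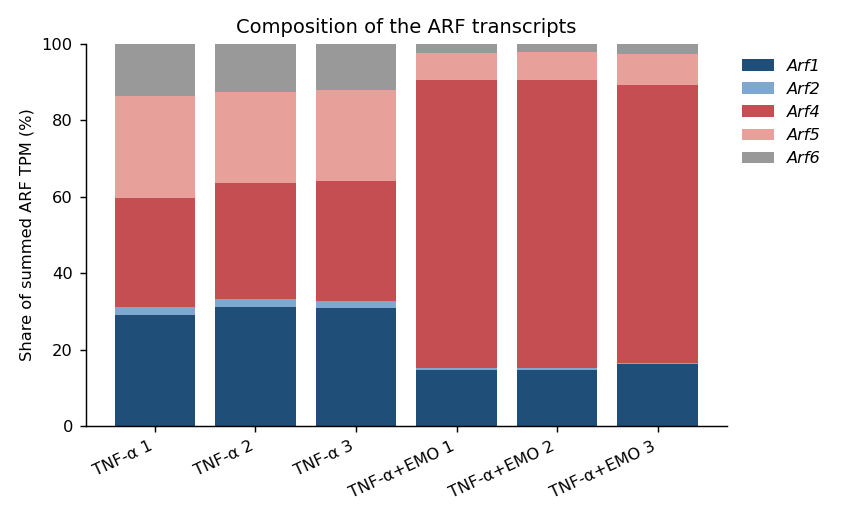
Share of each ARF gene in the summed TPM of Arf1, Arf2, Arf4, Arf5 and Arf6, one stacked bar per library, in percent. Arf4 (red) takes 28.5% to 31.3% of the bar with TNF-α alone and 72.7% to 75.4% with EMO.

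The CREB3 factors changed place in a similar manner. Of the summed TPM of Creb3, Creb3l1 and Creb3l2, Creb3 made up 44.2% ± 1.43 with TNF-α and 88.6% ± 1.38 with EMO (SD, n = 3 each). Creb3l2 held 46.1% ± 2.24 and then 7.91% ± 1.02, and Creb3l1 held 9.70% ± 1.03 and then 3.51% ± 0.55. With TNF-α alone Creb3 and Creb3l2 were thus at similar levels, and with EMO Creb3 was the main transcript of the 3.

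The order of all 9 genes per length shows the same change. In the TNF-α group Arf1 (746 ± 15.5 TPM) and Arf4 (736 ± 29.4 TPM) came first and overlapped, followed by Arf5 (611 ± 52.3), Arf6 (311 ± 23.0), Creb3l2 (140 ± 11.0), Creb3 (134 ± 1.31), Gbf1 (74.3 ± 1.95), Arf2 (49.1 ± 1.52) and Creb3l1 (29.4 ± 2.39). Creb3l2 and Creb3 overlapped as well, and no other neighbors did. In the TNF-α+EMO group the order was Arf4 (6600 ± 348 TPM), Arf1 (1347 ± 30.1), Arf5 (658 ± 29.0), Creb3 (261 ± 8.63), Arf6 (211 ± 13.2), Gbf1 (123 ± 13.0), Arf2 (42.6 ± 3.71), Creb3l2 (23.3 ± 2.53) and Creb3l1 (10.3 ± 1.58), with no overlap between neighbors. Creb3 moved above Arf6, and Creb3l2 came below Gbf1 and Arf2 in the order.

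The genes whose pattern over the 6 libraries was most like that of Arf4 were found by the root mean square difference of log2 CPM, each gene centred on its TNF-α mean, among 9690 genes with a mean of at least 100 counts. The closest 5 were the kinase gene Riok3 (0.0774), Tmem140 (0.0830), the ER co-chaperone gene Dnajb9 (0.0865), the stress-inducible Zfand2a (0.131) and the choline transporter-like Slc44a3 (0.131). Riok3 went from 2237 ± 127 to 25631 ± 2070 normalized counts and Dnajb9 from 513 ± 20.9 to 5893 ± 648. The log2 fold changes of the 5 lay between 3.40 and 3.52. They were picked for this likeness, which rests almost wholly on the size of the difference between the groups.

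The genes that act with the ARF GTPases and CREB3 were then taken as 9 lists with 173 genes, of which 6 names were not analysed here, 16 were under the filter and 151 were tested. Adjusted p-values are from edgeR's quasi-likelihood test and were adjusted by Benjamini-Hochberg across the 13614 genes. Of the 151, 48 rose more than 2-fold with EMO, 20 fell and 83 were not called, where 19.5% of all tested genes rose and 27.8% fell. Their median log2 fold change was 0.49, where that of all genes was -0.01. The highest list medians were those of the COPI subunits and the golgins, and the lowest was that of the exchange factors other than Gbf1.

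The next list held genes that process or partner CREB3 factors and the related membrane-bound factors Atf6 and Atf6b. Of these, 3 of 8 rose, 0 fell and 5 were not called, with a median log2 fold change of 0.18. Among all tested genes, 19.5% rose and 27.8% fell. Atf6, a membrane-bound stress factor cut by the same Golgi proteases, rose from 1419 ± 37.0 to 9237 ± 1206 normalized counts (log2 fold change 2.70, SE 0.09, adjusted p = 4.99e-10). Crebrf, a regulator of CREB3 known to promote its breakdown, rose with a log2 fold change of 1.39 (adjusted p = 7.38e-06), and the host cell factor Hcfc2 with 1.18 (adjusted p = 2.50e-07). For the proteases themselves no rise was called. Mbtps1, site-1 protease, went from 4096 ± 51.7 to 2263 ± 130 normalized counts (log2 fold change -0.86, adjusted p = 1.91e-07) and passed the p but not the fold threshold. Mbtps2, site-2 protease, was at 577 ± 4.99 and 586 ± 51.4, with a log2 fold change of 0.02 (SE 0.09, adjusted p = 0.822).

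Of the ARF exchange factors other than Gbf1, 1 of 12 rose, 7 fell and 4 were not called, with a median of -1.36, beside 27.8% of all tested genes that fell. Those that fell included members of the cytohesin, IQSEC and PSD groups, which act mostly on Arf6 and Arf1 at the cell surface and endosomes. Cyth4 had a log2 fold change of -1.27 (SE 0.10, adjusted p = 5.61e-07) and Psd3 of -2.44 (SE 0.19, adjusted p = 4.25e-07). Psd4 had 12, 29 and 14 counts with TNF-α and 0, 1 and 1 with EMO (adjusted p = 2.10e-04). It missed the filter when any 1 of the TNF-α libraries was left out, and 6 of the list were then called lower. The trans-Golgi exchange factors, BIG1 and BIG2, were not among the genes that fell: Arfgef1 was at 1834 ± 30.4 and 1776 ± 255 normalized counts (log2 fold change -0.05, SE 0.09, adjusted p = 0.654), and Arfgef2 at 1347 ± 62.2 and 2558 ± 183 (0.92, SE 0.07, adjusted p = 3.59e-07), under the fold threshold. The F-box protein gene Fbxo8 was the single riser, at 1.44 (adjusted p = 2.17e-07). Without TNF-α+EMO replicate 3, 2 of the list were called higher.

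Of the ARF GTPase-activating proteins, which switch ARFs off, 2 of 20 rose, 6 fell and 12 were not called, with a median of 0.05, where 19.5% of all tested genes rose and 27.8% fell, so the count that fell was near that of all genes. The risers were the Golgi proteins Arfgap1, from 1522 ± 45.0 to 4425 ± 299 normalized counts (log2 fold change 1.54, adjusted p = 3.03e-09), and Arfgap3, from 2004 ± 58.3 to 7619 ± 213 (1.93, adjusted p = 1.70e-10). Among those that fell, Asap2, a regulator of focal adhesions, had a log2 fold change of -3.35 (SE 0.18, adjusted p = 1.74e-08), and Agfg2 had -2.55 (SE 0.11, adjusted p = 3.09e-09).

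Of the ARF effectors, 9 of 33 rose, 3 fell and 21 were not called, with a median of 0.25, beside 19.5% and 27.8% of all tested genes. The AP-3 adaptor subunit Ap3s1 rose with a log2 fold change of 1.74 (adjusted p = 2.03e-09) and arfaptin Arfip2 with 1.73 (adjusted p = 1.10e-08). The 3 effectors that fell were lipid enzymes. Phospholipase D1, Pld1, went from 2020 ± 87.3 to 217 ± 43.3 normalized counts (log2 fold change -3.22, adjusted p = 1.96e-09). The phosphatidylinositol 4-phosphate 5-kinase Pip5k1c changed by -2.43 (adjusted p = 7.31e-10), and its relative Pip5k1b, named after its value was seen, by -1.32 (adjusted p = 1.05e-05). The lipid enzymes Pi4kb, Pip5k1a and Pld2 of the same list were not called lower.

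Of the ARF-like and SAR GTPases, 7 of 19 rose, 1 fell and 11 were not called, with a median of 0.79. Among all tested genes, 19.5% rose and 27.8% fell. Arl1, which tethers golgins at the trans-Golgi, went from 1401 ± 80.1 to 4359 ± 126 normalized counts (log2 fold change 1.64, adjusted p = 1.34e-09). Sar1b, the GTPase that starts the COPII coat at the ER, went from 989 ± 21.6 to 4371 ± 231 (2.14, adjusted p = 1.68e-10). Arl4a was at 2.47 (adjusted p = 3.35e-10) and the low Arl5c at 1.31 (adjusted p = 8.18e-04). Arl11 had 21, 38 and 35 counts with TNF-α and 0, 0 and 0 with EMO, at least 9.95-fold lower against a floor of 3 counts per library (adjusted p = 2.19e-05). It missed the filter, and was no longer tested, when any 1 of the TNF-α libraries was left out or when 10 counts were asked of all libraries.

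Of the COPI subunits, the coat that Arf1 recruits, 5 of 7 rose, 0 fell and 2 were not called, with a median of 1.22. The shares of all tested genes that rose and fell were 19.5% and 27.8%. Of the uncalled subunits, 1 passed the p threshold as lower, at -0.62. Copb2 and Copg1 were not analysed here. Copa (log2 fold change 1.14, adjusted p = 1.33e-08), Copz2 (1.22, adjusted p = 1.55e-08), Arcn1 (1.50, adjusted p = 3.06e-09) and Cope (2.04, adjusted p = 3.79e-09) were among the risers, together with Copb1 (1.24, adjusted p = 9.15e-08), named after its value was seen. Of the COPII genes, which form the outbound ER coat, 2 of 11 rose, 0 fell and 9 were not called, with a median of 0.41, and the count that rose was near the 19.5% of all tested genes. The lowest log2 fold change among the COPII genes was -0.74, and 1 of them passed the p threshold as lower. Sec13 (1.76, adjusted p = 4.66e-10) and Sec23b (1.73, adjusted p = 6.54e-10) rose, while Sec24d (0.84, adjusted p = 7.57e-07) and Sec23a (0.35, adjusted p = 0.00547) stayed under the fold threshold. Sec23a also lost its p without TNF-α replicate 2 or 3 (adjusted p = 0.065 and 0.0584).

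Of the golgins and Golgi stacking and fusion proteins, 14 of 23 rose, 1 fell and 8 were not called, with a median of 1.18. The shares of all tested genes that rose and fell were 19.5% and 27.8%. The SNARE gene Gosr2 went from 2407 ± 61.9 to 8684 ± 209 normalized counts (log2 fold change 1.85, adjusted p = 1.96e-10) and Golga3 from 1257 ± 47.7 to 5366 ± 297 (2.09, adjusted p = 2.46e-10). Golga2, the cis-Golgi matrix protein GM130, rose with 1.18 (adjusted p = 9.60e-09) and Tmf1 with 1.05 (adjusted p = 5.28e-07). The gene that fell was Cux1 at -1.73 (SE 0.10, adjusted p = 4.48e-08), a locus that encodes both a transcription factor and the golgin CASP, which gene-level counts do not separate.

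Of the KDEL receptors and genes known from Golgi stress studies, 5 of 18 rose, 2 fell and 11 were not called, with a median of 0.25, beside 19.5% and 27.8% of all tested genes. The receptors that return ER proteins from the Golgi went up by unequal amounts: Kdelr2 rose with a log2 fold change of 1.12 (adjusted p = 3.69e-08), Kdelr3 was just under the fold threshold at 0.99 (adjusted p = 5.81e-06) and Kdelr1 was at 0.60 (adjusted p = 2.13e-06). Herpud1, a gene of ER-associated degradation, had the largest change of the list, from 780 ± 48.7 to 6491 ± 172 normalized counts (3.06, SE 0.07, adjusted p = 2.20e-11), and the transcription factor Klf2 rose with 1.74 (adjusted p = 1.48e-06). Tfe3, the factor of the Golgi apparatus stress response element, at 1.16 (adjusted p = 3.19e-07) and the SNARE gene Stx3 at 1.61 (adjusted p = 3.97e-07) completed the risers and are named after their values were seen. The sialyltransferase St3gal1 (-1.24, adjusted p = 2.36e-07) and the heparan sulfate proteoglycan Sdc4 (-1.50, adjusted p = 2.41e-09) fell, so the genes of this list did not share a direction.

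**Figure D5:**
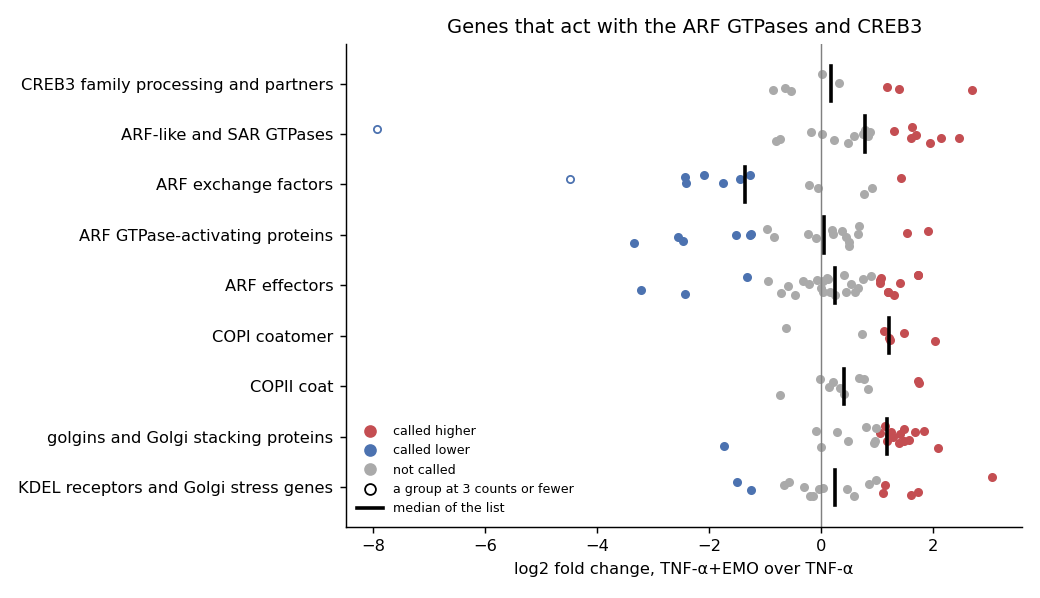
Log2 fold change of TNF-α+EMO over TNF-α for the 151 tested genes of the 9 lists, one point per gene, colored by call, with the median of each list as a black bar and open circles for genes with at most 3 counts in every library of a group. The medians of golgins (1.18) and COPI (1.22) are highest and that of the exchange factors (-1.36) is lowest, and the position of open circles depends on the prior count of the fit.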

How the data were processed

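RNA-seq was analysed from 6 libraries of rat RA-FLS, 3 TNF-α and 3 TNF-α+EMO, grouped by the sample labels. The authors made poly(A)-selected paired-end libraries with an NEBNext Ultra kit and aligned reads with HISAT2 to Rnor_6.0. FastQC and Trimmomatic are named in the submitters' processing notes. The counting program, its strand setting and the annotation version are not given in the sources used here. The authors deposited raw counts per gene, which carry no normalization, and FPKM values, which adjust for gene length and sequencing depth. The deposited fold changes, p-values and group means of the authors' own comparison were not used.

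Genes reaching 10 counts in 3 or more libraries entered a fit in edgeR 4.0.16 under R 4.3.3 after TMM scaling (robust quasi-likelihood fit, Benjamini-Hochberg adjustment). A gene was called at adjusted p under 0.05 and absolute log2 fold change over 1. Normalized counts were scaled by TMM library size to the mean of the libraries, and TPM was recomputed from counts and deposited gene lengths. The fit was also run on simulated data in which far fewer genes differed than here, so that run does not test the TMM scaling. With 3 libraries per group an exact permutation test cannot go below p = 0.1, so none is given. Alternatives were DESeq2 1.42.0, other scalings, filters and call rules, the replicate block, and leaving out each library. The TPM ratio was added after seeing the data.

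The genes, lists and motifs were chosen with earlier results of these data known. Besides every member, the text names from each list the 2 highest and 2 lowest log2 fold changes among the genes called (all where 4 or fewer were called), 14 further genes of these lists, and the 5 genes most like Arf4. The common biological coefficient of variation was 0.121. Intervals were not computed, and spread is given as the SD over libraries or the SE of the fit.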

Additional observations from a re-analysis of the deposited data

How the results depend on the processing

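Over 13 other settings of scaling, tool, filter, replicate block and left-out libraries, the log2 fold changes of the 9 genes kept their direction, with Arf4 between 3.41 and 3.55, Creb3l2 between -2.37 and -2.17 and Arf2 between 0.039 and 0.212. With library totals in place of TMM the median of all genes moved to -0.12, the share of calls that were higher was 36.1% instead of 41.3%, Gbf1 was at 0.971 and 5 of the 9 genes were called. The median of the 9 genes was 0.467, 0.353 with library totals, 0.105 as the log2 ratio of TPM, and 0.345 to 0.528 when a library was left out, lowest without TNF-α replicate 2. On the TPM scale Arf2 reversed to -0.205, while its mean deposited FPKM was 24.9 with TNF-α and 27.4 with EMO. Of the 9 genes, 2 were called at an absolute log2 fold change over 2, and 6 when any library was left out. Of the 151 pathway genes, 92 were higher and 37 lower with no fold threshold, 6 and 10 at a log2 fold change over 2, and 45 to 51 and 19 to 22 when a library was left out. The share of Arf4 in the ARF pool was 39.9% and 82.5% in counts without length scaling, and 29.4% to 30.7% and 74.0% to 75.4% with a library left out. Arfgef1 ranged from -0.139 to 0.0666 when a library was left out, with the upper value without TNF-α+EMO replicate 3. Mbtps2 reversed to -0.0198 with upper quartile scaling, -0.0906 with library totals, -0.0531 with at least 10 counts in all libraries, -0.0173 without TNF-α+EMO replicate 1, and -0.0457, -0.0497 and -0.058 without TNF-α replicates 1, 2 and 3, and was 0.107 without TNF-α+EMO replicate 3. The cause of these shifts was not tested.

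The replicate numbers share no source in the labels. Deviations of same-numbered libraries correlated between -0.00683 and 0.0676 and those of other pairs between -0.0701 and 0.0528. With 3 libraries per group, so few correlations cannot decide whether the numbers pair the samples. With the replicate block 6421 genes were called instead of 6442, and 6 of the 9 genes.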
